A study of Mus musculus with 12 samples.

Results

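Oxidative phosphorylation runs on 5 protein assemblies of the inner mitochondrial membrane, and most of their subunits are encoded in the nucleus. The genes examined here were the rows of the expression table whose symbol begins with Ndufa, Ndufb, Ndufc, Ndufs, Ndufv, Sdh followed by a to d, Uqcr, Cox4i, Cox5, Cox6, Cox7, Cox8 or Atp5. Names with -ps (pseudogenes) or with af followed by a digit (assembly factors) were left out, and assembly factors with other names were not removed. This rule took 82 of 16389 genes. By the start of the symbol, 37 were counted under complex I, 4 under complex II, 8 under complex III, 16 under complex IV and 17 under ATP synthase. A gene named after a complex need not be a subunit of it. RefSeq, for example, names Atp5s and Atp5sl Dmac2l and Dmac2. The rule used symbols alone and no measured value. All 82 genes passed the filter on low values and were tested.

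Complexes I and II take electrons from NADH and succinate, complex III passes them to cytochrome c, and complex IV hands them to oxygen. Protons pumped on the way drive ATP synthase. In glia most of these genes are expressed in every cell type. Some complex IV subunits come in paired isoforms, one widespread and one known from muscle, heart, lung or testis. Complex II differs from the others in that all its subunits are nuclear and that it is also an enzyme of the tricarboxylic acid cycle.

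The libraries were made from eGFP+ cells sorted from the thoracic spinal cord of adult Aldh1l1-EGFP mice. In this line the promoter of Aldh1l1, a folate enzyme gene used as an astrocyte marker, drives eGFP, and injured and uninjured mice carried it alike. Full transection (FT) was represented by 3 libraries at 2 weeks and 1 library at 1 week after injury, and lateral hemisection (HS) by 2 libraries at 2 weeks and 3 libraries at 1 week. Non-injured mice (NI) gave 3 libraries. Each library came from pooled animals, so that the spread between libraries is a spread between pools, and the FT 1 week group had no replicate. Values are normalized counts, which are reads per gene divided by 1 factor per library, and the recovered reads numbered 8270643 to 15562378 per library.

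The sorted material was checked against marker genes. Transcripts of the oligodendrocyte lineage outweighed those of astrocytes in all 12 libraries: the normalized counts per kilobase of transcript, summed over 12 oligodendrocyte genes, were 4.36 to 20.9 times the sum over 18 astrocyte genes. No gene of either list was at 0 in any library. The astrocyte sum was highest in HS 1 week replicate 2 (7335 per kilobase) and lowest in HS 1 week replicate 3 (1259 per kilobase). The sum over 17 microglia and macrophage genes ranged from 948.1 to 12826 per kilobase in injured libraries and from 839.2 to 6400 per kilobase in NI libraries. Blood cell transcripts differed more between the groups, with sums over 5 neutrophil and erythroid genes of 36.9 to 1907 per kilobase in injured libraries and 585.1 to 10530 per kilobase in NI libraries, and their part in the comparisons with NI was not tested. The values below are therefore those of mixed glial libraries, in which fewer cells of a type and less RNA per cell cannot be told apart.

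The levels of the subunit genes differed widely within complexes and less between the medians of the complexes. Per kilobase of transcript, the mean normalized count over the 12 libraries had a median of 174.0 for the 37 genes of complex I, 117.4 for the 4 of complex II, 358.0 for the 8 of complex III, 155.1 for the 16 of complex IV and 236.7 for the 16 genes of ATP synthase with an annotated length. Cox4i1, the common form of the largest nuclear subunit of cytochrome c oxidase, was the most abundant member at 930.1 per kilobase. The small complex III subunit genes Uqcrq, Uqcrb, Uqcr10, Uqcr11 and Uqcrh formed a tight group, while Uqcrfs1, which encodes the Rieske iron-sulfur protein of the same complex, had only 25.7 per kilobase. In complex I, Ndufs1, the gene of the largest iron-sulfur subunit, stood at 45.9 per kilobase. Ndufab1, the gene of the mitochondrial acyl carrier protein, stood at 14.7 per kilobase. Their annotated lengths were 2625.5 and 2447.5 bases, against a median of 742 bases over the members. How evenly reads covered long transcripts was not tested, and low levels per kilobase of long transcripts are uncertain to that extent. Of the 81 members with an annotated transcript, 7 had an annotated pseudogene at least 95% identical over at least 50% of the transcript, most of all Atp5l with 8 and Atp5h and Uqcrb with 3 each. Counting could have split the reads of these 7 genes, and their levels are uncertain to that extent.

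**Figure D1:**
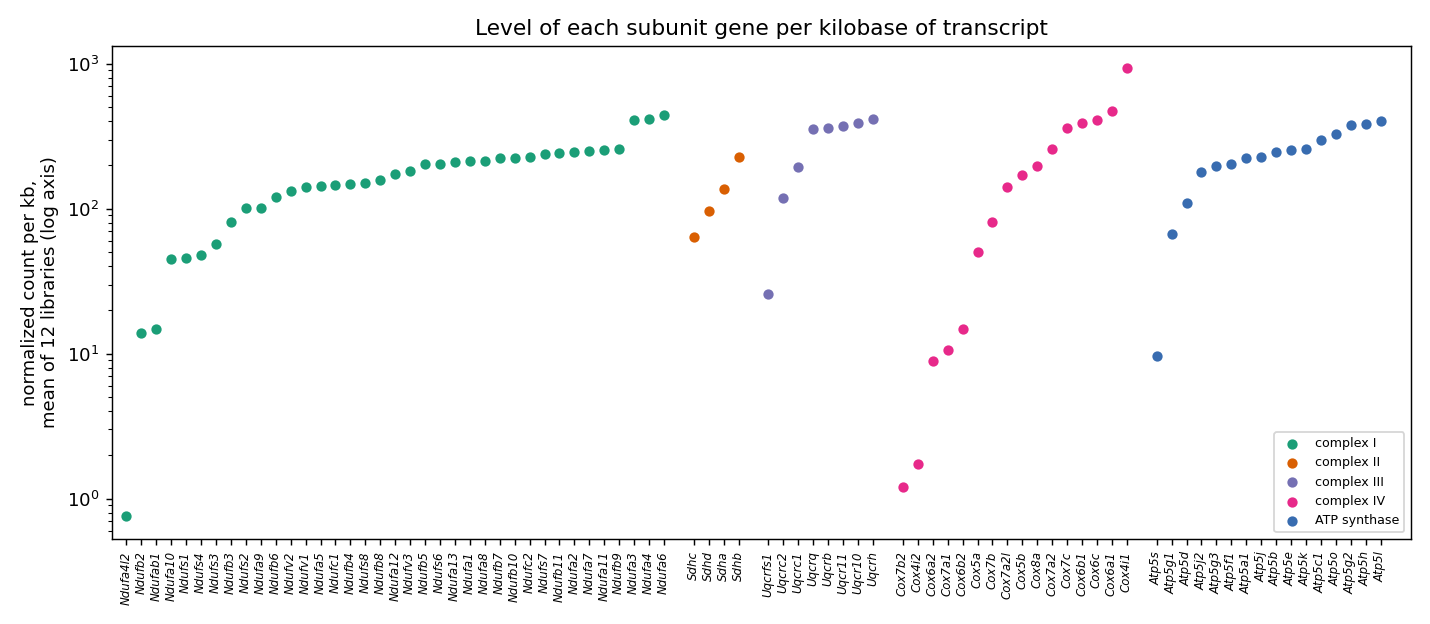
Each point is the mean over 12 libraries of the normalized count per kilobase of transcript (log axis) of 1 subunit gene, ordered within its complex. Cox4i1 is highest at 930.1, and the isoforms Ndufa4l2, Cox7b2 and Cox4i2 lie lowest.

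Where a subunit has isoforms, the widespread one supplied nearly all transcripts in every library. Cox4i1 made up 99.6 to 99.99% of the length-corrected sum of Cox4i1 and Cox4i2, and Ndufa4 made up 99.7 to 99.9% of the sum of Ndufa4 and Ndufa4l2. Cox4i2 is known as the lung and hypoxia-regulated form, and Ndufa4l2 as a target of the hypoxia factor HIF-1. Cox6a1, the liver-type subunit, held 93.3 to 99.98% against its heart and muscle partner Cox6a2, and Cox7a2 held 93.8 to 98.8% against its heart and muscle partner Cox7a1. Cox6b1 held 93.7 to 98.0% against Cox6b2, a form known from testis. The 3 genes for the c subunit of ATP synthase, which encode the same mature protein, shared the transcripts more evenly, with 52.5 to 65.9% from Atp5g2, 24.97 to 35.7% from Atp5g3 and 8.65 to 11.9% from Atp5g1.

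The largest differences among the 82 genes lay between libraries and not between conditions. HS 1 week replicate 2 held the highest value of the 12 libraries in 59 of 82 members, and HS 1 week replicate 3, a library of the same injury and time, held the lowest value in 52 of 82. Of all 16389 genes, 15.1% were highest in the first of these libraries and 10.1% lowest in the second. The median member was 0.97 higher on the log2 scale in replicate 2 than in replicate 3, against -0.04 for the median of all genes. Replicate 2 was above both other HS 1 week libraries in 79 of 82 members (96.3%), against 36.5% of all genes, and the 3 exceptions were Cox5a, Cox6a2 and Ndufab1. The order replicate 2, replicate 1, replicate 3 from high to low was kept by 71 of 82 members (86.6%) and by 24.1% of all genes. These shares are given as a description, because members of one pathway and one library are not independent of each other.

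NI replicate 1 was also above both other NI libraries in 69 of 82 members (84.1%), against 38.6% of all genes. Written as the deviation of each gene from its own mean over the 12 libraries (log2 of the normalized count plus 1), the median member stood at -0.14, 0.03 and 0.23 in the FT 2 weeks libraries, at -0.01 in the FT 1 week library, at -0.19 and -0.05 in HS 2 weeks, at -0.15, 0.53 and -0.46 in HS 1 week, and at 0.32, -0.11 and 0.04 in NI. The HS 1 week libraries alone spanned the whole range, and every other group lay inside it. The summed normalized counts of the 82 genes were 12146 to 14725 in FT 2 weeks, 12985 in FT 1 week, 11592 to 12652 in HS 2 weeks, 10039 to 18833 in HS 1 week and 11785 to 16076 in NI, so that the members took between 1.05 and 1.66% of the reads. Within groups, the median SD of a member was 0.36 on the log2 scale. It was 0.16 once the median member of each library had been subtracted, so that members differed less from each other than the libraries did. Complex II departed from the other complexes in some libraries, with a median of 0.04 in FT 2 weeks replicate 1 and of -0.22 in NI replicate 3, where the 82 members together stood at -0.14 and 0.04.

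**Figure D2:**
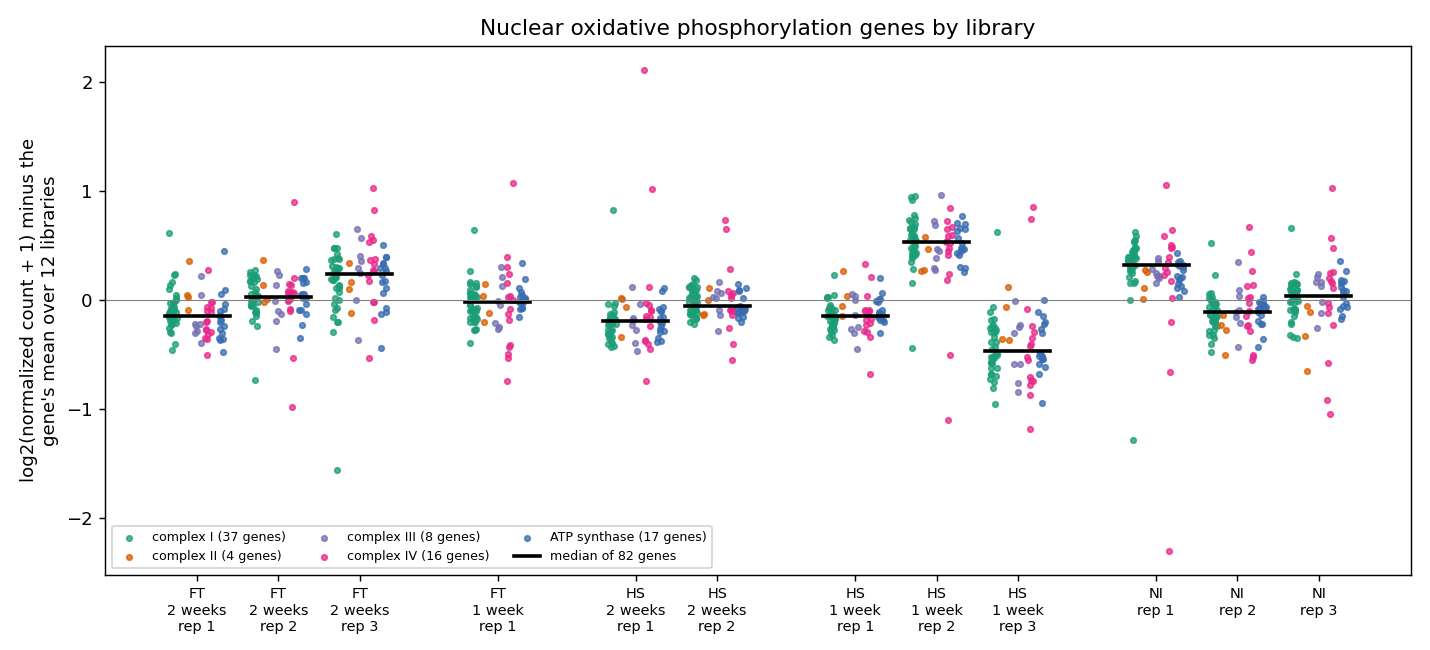
Each point is 1 gene in 1 library, as log2 of the normalized count plus 1 minus that gene's mean over 12 libraries, coloured by complex, and the black bar is the median of the 82 genes. The medians of HS 1 week replicate 2 (0.53) and HS 1 week replicate 3 (-0.46) mark the extremes, where all 5 complexes shift the same way, while complex II stands apart in NI replicate 3 and FT 2 weeks replicate 1.

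Atp5h, which encodes the d subunit in the stalk of ATP synthase, followed the shared course most closely of all members, with an SD of 0.06 about the library median. It had 203.8, 226.7 and 283.7 normalized counts in FT 2 weeks, 259.9 in FT 1 week, 207.7 and 228.8 in HS 2 weeks, 223.9, 328.9 and 167.2 in HS 1 week and 308.7, 234.2 and 270.5 in NI. The HS 1 week libraries held both its highest and its lowest value. Ndufb10, an accessory subunit gene of the membrane arm of complex I, had 152.0, 186.3 and 194.6 normalized counts in FT 2 weeks, 133.6 in FT 1 week, 141.8 and 148.7 in HS 2 weeks, 137.1, 235.6 and 113.8 in HS 1 week and 214.3, 162.8 and 160.1 in NI. Its injured and NI libraries overlapped in the same way. Cox4i1, the most abundant member, had 643.4, 691.5 and 780.0 normalized counts in FT 2 weeks, 691.1 in FT 1 week, 643.7 and 649.6 in HS 2 weeks, 561.5, 997.0 and 543.2 in HS 1 week and 958.2, 588.3 and 678.9 in NI. The gene of the catalytic β subunit of ATP synthase, Atp5b, had 501.0, 477.8 and 430.8 normalized counts in FT 2 weeks, 464.6 in FT 1 week, 443.8 and 437.5 in HS 2 weeks, 464.6, 626.6 and 410.3 in HS 1 week and 515.6, 468.8 and 450.4 in NI. In both genes HS 1 week replicate 2 was highest and HS 1 week replicate 3 lowest, with all other libraries between them.

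Other nuclear genes of mitochondria were read in the same way. In HS 1 week replicate 2 the median deviation was 0.28 for 31 assembly factors, which build the complexes, 0.37 for 76 mitochondrial ribosomal proteins, 0.45 for 9 carriers and partners such as cytochrome c and the adenine nucleotide translocators, and 0.38 for 13 enzymes of the tricarboxylic acid cycle. In HS 1 week replicate 3 the same lists stood at -0.29, -0.30, -0.18 and -0.14. The 17 glycolysis genes also went with that order, at 0.53 and -0.25 in these libraries. The 10 hypoxia response genes were also highest in HS 1 week replicate 2 (0.50) but did not keep that order. They stood at -0.12 in HS 1 week replicate 1 and at -0.11 in HS 1 week replicate 3. The 80 cytosolic ribosomal protein genes had another order, at -0.19 and -0.06 in HS 1 week replicates 2 and 3. Their highest medians were in NI replicate 3 (0.55) and HS 2 weeks replicate 1 (0.41). The 13 regulators of mitochondrial biogenesis, among them Ppargc1a, Nrf1 and Tfam, stood at -0.15 in HS 1 week replicate 2 and at 0.10 in HS 1 week replicate 3. Subunit genes encoded in mitochondrial DNA were not analysed here. HS 1 week replicate 2 also had the highest astrocyte marker sum and HS 1 week replicate 3 the lowest, while their microglia and macrophage sums were 1319 and 18372 normalized counts. FT 1 week replicate 1 and HS 2 weeks replicate 1 had microglia and macrophage sums of 15392 and 18055 normalized counts and stood at medians of -0.01 and -0.19 over the 82 members. The part of the cell mixture in the members' levels was not tested.

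**Figure D3:**
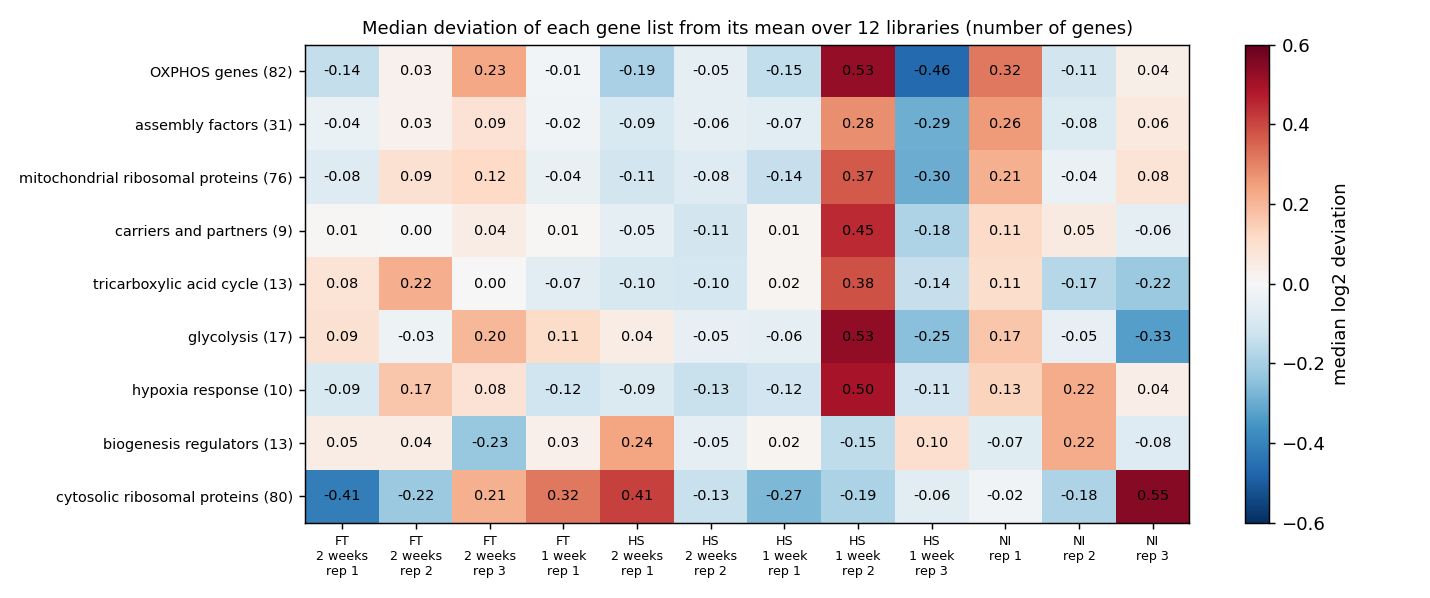
Each cell gives the median over the genes of 1 list (rows, number of genes in brackets) of the log2 deviation from each gene's mean over 12 libraries (columns). The lists of mitochondrial proteins and glycolysis are highest in HS 1 week replicate 2 and low in HS 1 week replicate 3, and the cytosolic ribosomal proteins have another order. The hypoxia response list is also highest in HS 1 week replicate 2 (0.50).

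The members' promoters were searched for motifs of factors known to bind genes of this pathway. The part of these motifs in the variation between libraries was not tested. RefSeq promoters of GRCm38.p6, from 250 bases before to 50 bases after the start, were matched to 68 of the 82 members and compared with 27025 promoters of the same length. The NRF1 motif GCGCNTGCG, read on both strands, occurred in 30.9% of the members' promoters, against 6.59% of all promoters. The ETS motif CCGGAAG, which GABPA binds, occurred in 22.1% against 9.12%, the YY1 motif AAGATGGC in 14.7% against 2.88%, and the ERRA motif CAAGGTCA in 4.41% against 1.53%. The general promoter motifs differed less, with CCAAT in 45.6% against 37.9% and the SP1 motif GGGCGG in 42.6% against 35.9%. At least 1 of the NRF1, ETS and YY1 motifs was found in 38 of 68 members' promoters (55.9%), against 16.6% of all promoters. These are matches of letters, given with no test. The 27025 promoters were not matched for base composition and were not limited to genes of the expression table.

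The promoters of the members closest to the shared course, and of members that departed from it, are given 5′ to 3′ on the strand of the gene, with capitals for every match to one of the 6 motifs. Atp5h (chr11:115419870-115420169 (minus strand)), Ndufb10 (chr17:24724374-24724673 (minus strand)) and Ndufa6 (chr15:82354242-82354541 (minus strand)), another complex I accessory subunit gene, had some of the smallest SDs about the library median, and each holds an NRF1 match. The match did not go with closeness to the shared course throughout, as Uqcrc1 and Cox6a1 hold 3 NRF1 matches each with SDs of 0.35 and 0.30, and Ndufb3, Ndufb5 and Cox7c hold no NRF1, ETS or YY1 match with SDs of 0.10, 0.11 and 0.11. In Atp5h, CGCAGGCGC is that match on the opposite strand, and CTTCCGG is the ETS match.
Atp5h: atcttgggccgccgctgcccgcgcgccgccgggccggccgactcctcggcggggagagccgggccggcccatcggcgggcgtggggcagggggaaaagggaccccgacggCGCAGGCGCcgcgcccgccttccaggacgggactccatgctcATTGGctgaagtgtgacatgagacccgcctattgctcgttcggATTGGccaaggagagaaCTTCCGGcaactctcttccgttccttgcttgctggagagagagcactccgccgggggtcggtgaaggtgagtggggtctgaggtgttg
Ndufb10: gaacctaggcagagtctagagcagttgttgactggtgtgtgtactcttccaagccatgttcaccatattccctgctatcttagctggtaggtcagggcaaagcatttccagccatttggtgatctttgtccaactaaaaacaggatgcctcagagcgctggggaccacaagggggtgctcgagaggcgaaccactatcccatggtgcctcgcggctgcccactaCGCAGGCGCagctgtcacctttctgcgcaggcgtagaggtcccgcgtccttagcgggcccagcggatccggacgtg
Ndufa6: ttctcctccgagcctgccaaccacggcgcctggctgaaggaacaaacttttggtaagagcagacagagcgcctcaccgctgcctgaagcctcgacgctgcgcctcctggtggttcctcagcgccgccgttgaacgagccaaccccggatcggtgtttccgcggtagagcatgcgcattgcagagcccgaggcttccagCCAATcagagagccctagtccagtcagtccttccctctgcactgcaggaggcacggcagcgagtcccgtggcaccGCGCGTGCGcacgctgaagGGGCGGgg
Sdha (chr13:74350191-74350490 (minus strand)), described below, holds 3 NRF1 matches. Cox5a (chr9:57520982-57521281 (plus strand)), Ndufab1 (chr7:122101799-122102098 (minus strand)) and Cox6b2 (chr7:4753045-4753344 (minus strand)) hold none of the NRF1, ETS or YY1 matches, and their capitals mark CCAAT and SP1 letters.
Sdha: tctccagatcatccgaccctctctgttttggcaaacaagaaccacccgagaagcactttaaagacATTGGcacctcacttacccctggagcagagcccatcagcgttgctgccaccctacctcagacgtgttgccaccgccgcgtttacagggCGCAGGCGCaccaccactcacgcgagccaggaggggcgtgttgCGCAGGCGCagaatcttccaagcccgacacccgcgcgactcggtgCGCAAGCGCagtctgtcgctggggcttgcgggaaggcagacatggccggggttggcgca
Cox5a: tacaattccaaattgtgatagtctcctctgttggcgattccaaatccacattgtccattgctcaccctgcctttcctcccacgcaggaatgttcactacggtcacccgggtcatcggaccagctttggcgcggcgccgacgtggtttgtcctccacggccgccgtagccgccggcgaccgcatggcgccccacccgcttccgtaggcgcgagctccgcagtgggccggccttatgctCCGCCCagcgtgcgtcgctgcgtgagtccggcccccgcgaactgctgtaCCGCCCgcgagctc
Ndufab1: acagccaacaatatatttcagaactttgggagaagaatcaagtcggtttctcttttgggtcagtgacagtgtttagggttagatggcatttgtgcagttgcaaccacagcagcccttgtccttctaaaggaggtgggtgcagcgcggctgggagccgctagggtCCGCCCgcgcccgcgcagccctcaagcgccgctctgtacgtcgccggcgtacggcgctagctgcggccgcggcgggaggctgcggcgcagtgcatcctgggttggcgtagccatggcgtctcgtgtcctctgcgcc
Cox6b2: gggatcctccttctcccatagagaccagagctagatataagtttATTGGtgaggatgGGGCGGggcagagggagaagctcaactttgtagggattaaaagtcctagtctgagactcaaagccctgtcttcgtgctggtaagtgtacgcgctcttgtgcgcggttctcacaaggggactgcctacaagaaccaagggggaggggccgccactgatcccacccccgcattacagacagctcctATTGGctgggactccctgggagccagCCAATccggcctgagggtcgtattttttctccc

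Injury was then compared with NI. A gene was called where its adjusted p was under 0.05 and its change at least 2-fold (limma, Benjamini-Hochberg adjustment over 16388 genes). None of the 82 members was called in any comparison. At 2 weeks after FT the median member had a log2 fold change of -0.04, against -0.01 for all genes tested, and 0 of 82 members were called, against 0.0427% of all genes. At an unadjusted p under 0.05 there were 2 members, against 10.8% of all genes. At 1 week after FT the median was -0.10, with 0 members called against 0.452% of all genes, and 1 member at an unadjusted p under 0.05 against 11.2%. At 2 weeks after HS the median was -0.19 and 68 of 82 members were negative, against 52.2% of all genes, with 0 members called against 0.0122%, and 1 member at the unadjusted threshold against 7.49%. At 1 week after HS it was -0.10, with 0 members called against 0.0061%, and 1 member at the unadjusted threshold against 7.66%.

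Averaged over the 4 injured groups, the median member was at -0.09, and 60 of 82 members (73.2%) had a negative log2 fold change, against 53.4% of all genes. No member was called, against 0.293% of all genes, and 2 members reached an unadjusted p under 0.05, against 13.9%. With equal column totals 10 members reached it, all lower, against 16.3% of all genes, and with array quality weights 9 did, against 34.3%. The quasi-likelihood test and the likelihood ratio test of edgeR also called 0 members in every comparison, and DESeq2 called 1, Cox6b2, in the mean of the injured groups. In that comparison these tests called 0.195%, 4.09% and 3.31% of all genes. In no member did every injured library lie above every NI library, which held for 1.97% of all genes, and in none did every injured library lie below every NI library, which held for 0.995%. The sum over the 82 members was 13422 ± 1290 normalized counts in FT 2 weeks and 13621 ± 2212 in NI (SD, n = 3 each), a ratio of 0.985.

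The precision of these comparisons differed between groups. The 95% interval of the fold change lay within 2-fold in either direction for 74 of 82 members (90.2%) at 2 weeks after FT, against 61.5% of all genes. This held for 57 members (69.5%) at 2 weeks after HS, for 70 members (85.4%) at 1 week after HS, and for 76 members (92.7%) in the mean of the injured groups. The shares of all genes in the same order were 54.2%, 62.2% and 70.4%. With the single FT 1 week library an interval within 2-fold was found for 36 members (43.9%), against 30.0% of all genes, so that a 2-fold change was not excluded for the other members there. Leaving out NI replicate 1 turned the median log2 fold change to 0.10 at 2 weeks after FT, 0.05 at 1 week after FT, 0.04 at 1 week after HS and 0.02 in the mean of the injured groups, and brought it to -0.08 at 2 weeks after HS. Leaving out FT 2 weeks replicate 1 turned the median at 2 weeks after FT to 0.04, and leaving out HS 2 weeks replicate 1 or 2 gave -0.11 or -0.29 at 2 weeks after HS. Without HS 1 week replicate 2 the median at 1 week after HS was -0.40 and 20 members reached an unadjusted p under 0.05, 19 of them lower, against 8.20% of all genes, with a smallest adjusted p of 0.586 from limma. Without HS 1 week replicate 3 that median was 0.13. The directions of these medians thus rested on single libraries in each comparison with NI except that of HS 2 weeks.

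**Figure D4:**
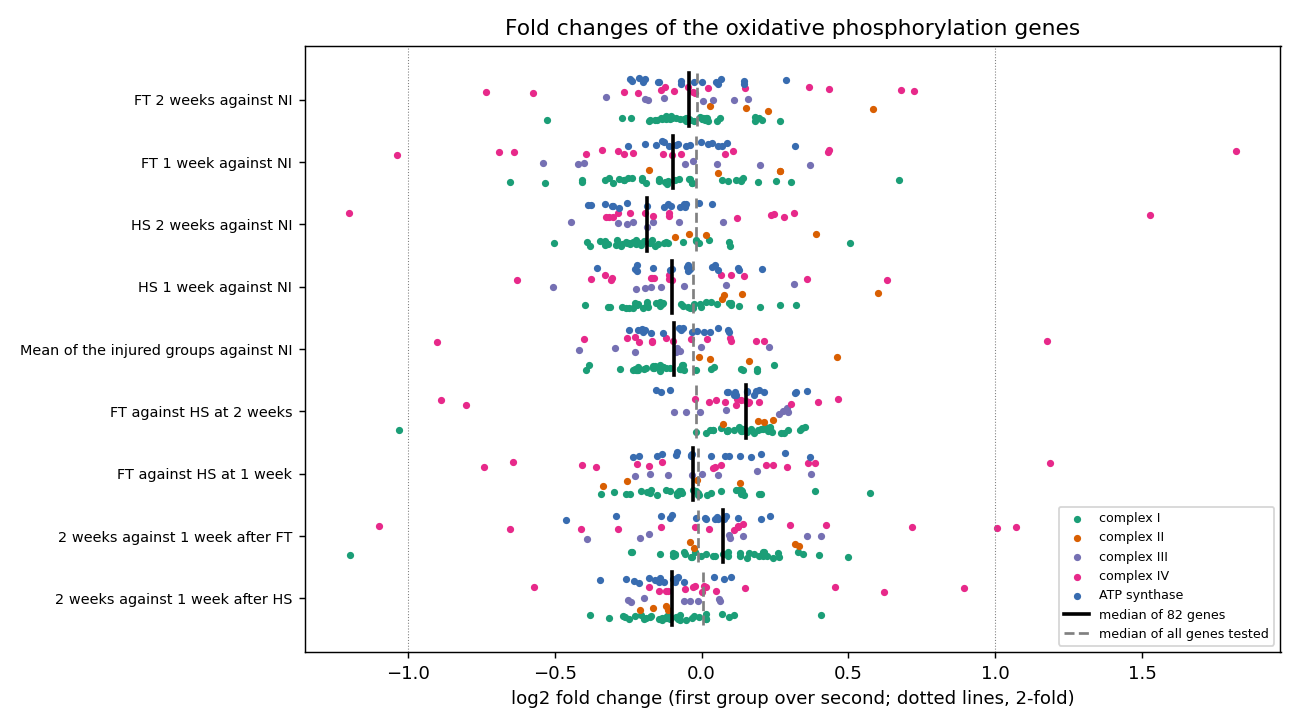
Each point is the log2 fold change of 1 member in 1 comparison (first group over second), coloured by complex, with the median of the 82 members as a black bar and the median of all genes tested as a dashed grey bar. Nearly all points lie between the dotted lines that mark 2-fold, and the medians lie between -0.19 and 0.15.

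The severity and the time of injury were compared directly. FT against HS at 2 weeks gave a median of 0.15, and 11 of 82 members were negative, against 51.9% of all genes. Without HS 2 weeks replicate 1 the median was 0.06. None was called, as was no other gene (0% of all genes), and 0 members reached an unadjusted p under 0.05, against 2.26% of all genes. The edgeR tests and DESeq2 called no member in this comparison either. FT against HS at 1 week had a median of -0.03, with 0 members called against 0.348% of all genes and 0 at an unadjusted p under 0.05 against 5.64%. After FT, 2 weeks against 1 week had a median of 0.07, with 0 members called against 0.384% and 0 at the unadjusted threshold against 9.17%. After HS, 2 weeks against 1 week had a median of -0.10, with 0 members called against 0% and 0 at the unadjusted threshold against 1.62%. These comparisons share libraries with those against NI and are not independent of them.

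By complex, the median log2 fold change in the mean of the injured groups was -0.13 for complex I, 0.09 for complex II, -0.09 for complex III, -0.11 for complex IV and -0.07 for ATP synthase. Complex II was the only one above 0, with Sdha at 0.46, Sdhb at 0.16, Sdhd at 0.03 and Sdhc at -0.01. Among the core subunits of complex I, Ndufs1 had 128.1, 140.1 and 111.9 normalized counts in FT 2 weeks, 129.5 in FT 1 week, 114.8 and 109.4 in HS 2 weeks, 140.3, 145.5 and 110.8 in HS 1 week and 119.3, 102.8 and 93.8 in NI. Its log2 fold change was 0.25 ± 0.15 (SE) in the mean of the injured groups, with an adjusted p of 0.494 from limma, and its groups overlapped. The Rieske protein gene Uqcrfs1 had 28.8, 31.6 and 53.7 normalized counts in FT 2 weeks, 28.3 in FT 1 week, 25.5 and 35.9 in HS 2 weeks, 28.0, 44.6 and 19.5 in HS 1 week and 41.3, 43.5 and 40.2 in NI. FT 2 weeks replicate 3 and HS 1 week replicate 2 lay above all NI libraries and the other 7 injured libraries below them, and its log2 fold change of -0.42 ± 0.26 (SE) had an adjusted p of 0.525 from limma.

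Sdha is the flavoprotein subunit gene of succinate dehydrogenase, on chromosome 13 from 74322254 to 74350280 (GRCm38). Members with a mean of at least 5 normalized counts were ranked by log2 fold change against NI. Sdha came after Cox6a2 alone at 2 weeks after FT and at 1 week after HS. It came after Cox6a2 and Ndufab1 at 2 weeks after HS and was outside the 3 largest rises at 1 week after FT. It had 499.9, 503.6 and 359.2 normalized counts in FT 2 weeks, 360.1 in FT 1 week, 395.2 and 390.2 in HS 2 weeks, 469.5, 472.6 and 423.6 in HS 1 week and 393.4, 275.0 and 247.7 in NI. All 9 injured libraries were above NI replicates 2 and 3, while NI replicate 1 lay among the injured ones, above FT 2 weeks replicate 3, FT 1 week replicate 1 and HS 2 weeks replicate 2. The log2 fold change was 0.58 ± 0.22 (SE) at 2 weeks after FT, with an unadjusted p of 0.0225 and an adjusted p of 0.411 from limma, and 0.60 ± 0.22 (SE) at 1 week after HS, with an unadjusted p of 0.0194 and an adjusted p of 0.599. At 2 weeks after HS it was 0.39 ± 0.24 (SE), with an unadjusted p of 0.140 and an adjusted p of 0.777 from limma. It was 0.46 ± 0.18 (SE) in the mean of the injured groups (limma, adjusted p = 0.301). With array quality weights, under which 13.5% of all genes had an adjusted p under 0.05, that of Sdha was 0.0176 at 2 weeks after FT, within a range of 0.0176 to 0.948 over 27 alternatives, and the change stayed under 2-fold in each.

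The partners of Sdha in complex II had log2 fold changes nearer to 0. Sdhb, the iron-sulfur subunit gene, had 259.5, 280.2 and 285.5 normalized counts in FT 2 weeks, 282.6 in FT 1 week, 242.6 and 232.0 in HS 2 weeks, 229.5, 379.9 and 197.5 in HS 1 week and 304.6, 210.6 and 201.7 in NI, and it followed the shared course. The ratio of Sdha to Sdhb counts was 1.93, 1.80 and 1.26 in FT 2 weeks, 1.27 in FT 1 week, 1.63 and 1.68 in HS 2 weeks, 2.05, 1.24 and 2.15 in HS 1 week and 1.29, 1.31 and 1.23 in NI. The NI libraries were close together, and the injured libraries reached from that level upward. Sdhc and Sdhd, the membrane anchors, had log2 fold changes of -0.01 ± 0.19 and 0.03 ± 0.15 (SE) in the mean of the injured groups, with 95% intervals of -0.43 to 0.41 and -0.31 to 0.36. Of the 13 other enzymes of the tricarboxylic acid cycle none was called, and Ogdh, a subunit of the 2-oxoglutarate dehydrogenase, had the smallest p among them in the mean of the injured groups, with a log2 fold change of 0.71 ± 0.20 (SE) and an adjusted p of 0.160 from limma.

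Cox6b2, the testis form of a complex IV subunit on chromosome 7 from 4751792 to 4753094 (GRCm38), had the most negative log2 fold change of all members in each comparison of an injured group with NI. It had 3.94, 7.11 and 5.93 normalized counts in FT 2 weeks, 4.30 in FT 1 week, 3.20 and 4.32 in HS 2 weeks, 5.09, 8.59 and 4.95 in HS 1 week and 9.59, 7.47 and 13.3 in NI. The reads behind these values were 32 to 99 in injured libraries and 117 to 185 in NI libraries. Of the 9 injured libraries, HS 1 week replicate 2 alone was above an NI library. The log2 fold change was -1.20 ± 0.35 (SE) at 2 weeks after HS, with an unadjusted p of 0.0056 and an adjusted p of 0.488 from limma. It was -0.90 ± 0.26 (SE) in the mean of the injured groups, with an unadjusted p of 0.0056 and an adjusted p of 0.179. DESeq2 gave it a log2 fold change of -1.04 and an adjusted p of 0.0378 for this mean, within a range of 0.0265 to 0.545 over 25 alternatives. The common form Cox6b1, at 139.0 to 293.1 normalized counts, followed the shared course, so that Cox6b2 held 2.03 to 6.30% of the transcripts of the pair.

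Cox5a, Ndufab1 and Cox6a2 were the 3 members that went against the shared course. Cox5a, a subunit gene of the matrix side of complex IV, had 35.7, 14.3 and 19.9 normalized counts in FT 2 weeks, 34.8 in FT 1 week, 60.5 and 27.8 in HS 2 weeks, 17.9, 20.4 and 49.7 in HS 1 week and 18.2, 47.2 and 41.0 in NI. Ndufab1 had 49.0, 18.6 and 10.1 normalized counts in FT 2 weeks, 49.8 in FT 1 week, 56.9 and 34.4 in HS 2 weeks, 32.0, 23.1 and 49.2 in HS 1 week and 12.4, 45.9 and 50.7 in NI. Both were high in HS 2 weeks replicate 1, HS 1 week replicate 3, NI replicates 2 and 3 and FT 1 week replicate 1, and low in NI replicate 1, HS 1 week replicate 2 and FT 2 weeks replicates 2 and 3. Cox6a2 had 4.09, 2.68 and 6.67 normalized counts in FT 2 weeks, 10.2 in FT 1 week, 21.99 and 2.64 in HS 2 weeks, 4.001, 1.47 and 8.63 in HS 1 week and 0.0786, 2.74 and 6.91 in NI, where the lowest value stands for 1 read in NI replicate 1. It was highest in HS 2 weeks replicate 1 and lowest in NI replicate 1.

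The sum over the 17 microglia and macrophage genes was 2916, 2110 and 3737 normalized counts in FT 2 weeks, 15392 in FT 1 week, 18055 and 2816 in HS 2 weeks, 5094, 1319 and 18372 in HS 1 week and 1126, 7815 and 10257 in NI. The 4 libraries with the highest sums were also the 4 highest in Cox6a2. The 5 libraries with the highest sums, together with FT 2 weeks replicate 1, were the 6 highest in Cox5a and in Ndufab1. NI replicate 1 and HS 1 week replicate 2 had the lowest sums. The 4 libraries with the highest microglia and macrophage sums also had the lowest astrocyte sums. These were 4108 normalized counts in FT 1 week and 3309 in HS 2 weeks replicate 1. HS 1 week replicate 3 had 2732 and NI replicate 3 had 3031, and the other libraries had 8336 or more. The part of either cell type in the 3 genes was not tested, and the likeness was seen after the values were known. The share of all genes with these rankings is not given here. Between groups the 3 genes had wide errors. Cox6a2 had a log2 fold change of 1.18 ± 0.69 (SE) in the mean of the injured groups (limma, adjusted p = 0.491), and Ndufab1 one of -1.03 ± 0.68 (SE) in FT against HS at 2 weeks (limma, adjusted p = 0.961).

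Cox4i2, on chromosome 2 from 152754173 to 152765037 (GRCm38), followed yet another order. It had 0.876, 2.80 and 2.59 normalized counts in FT 2 weeks, 0.403 in FT 1 week, 0.569 and 2.20 in HS 2 weeks, 0.606, 1.30 and 0.184 in HS 1 week and 3.22, 0.383 and 0.0720 in NI, from 1 to 41 reads. The sum over 8 pericyte and fibroblast genes was 6002, 11579 and 8171 normalized counts in FT 2 weeks, 871.1 in FT 1 week, 1369 and 4611 in HS 2 weeks, 2305, 1790 and 153.5 in HS 1 week and 7005, 643.1 and 458.9 in NI. The 4 libraries highest in Cox4i2 were among the 5 highest in this sum, and HS 1 week replicate 3 and NI replicate 3 were lowest in both. The part of these cells was not tested. The log2 fold change of Cox4i2 was 0.68 ± 0.51 (SE) at 2 weeks after FT, with an adjusted p of 0.662 from limma.

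**Figure D5:**
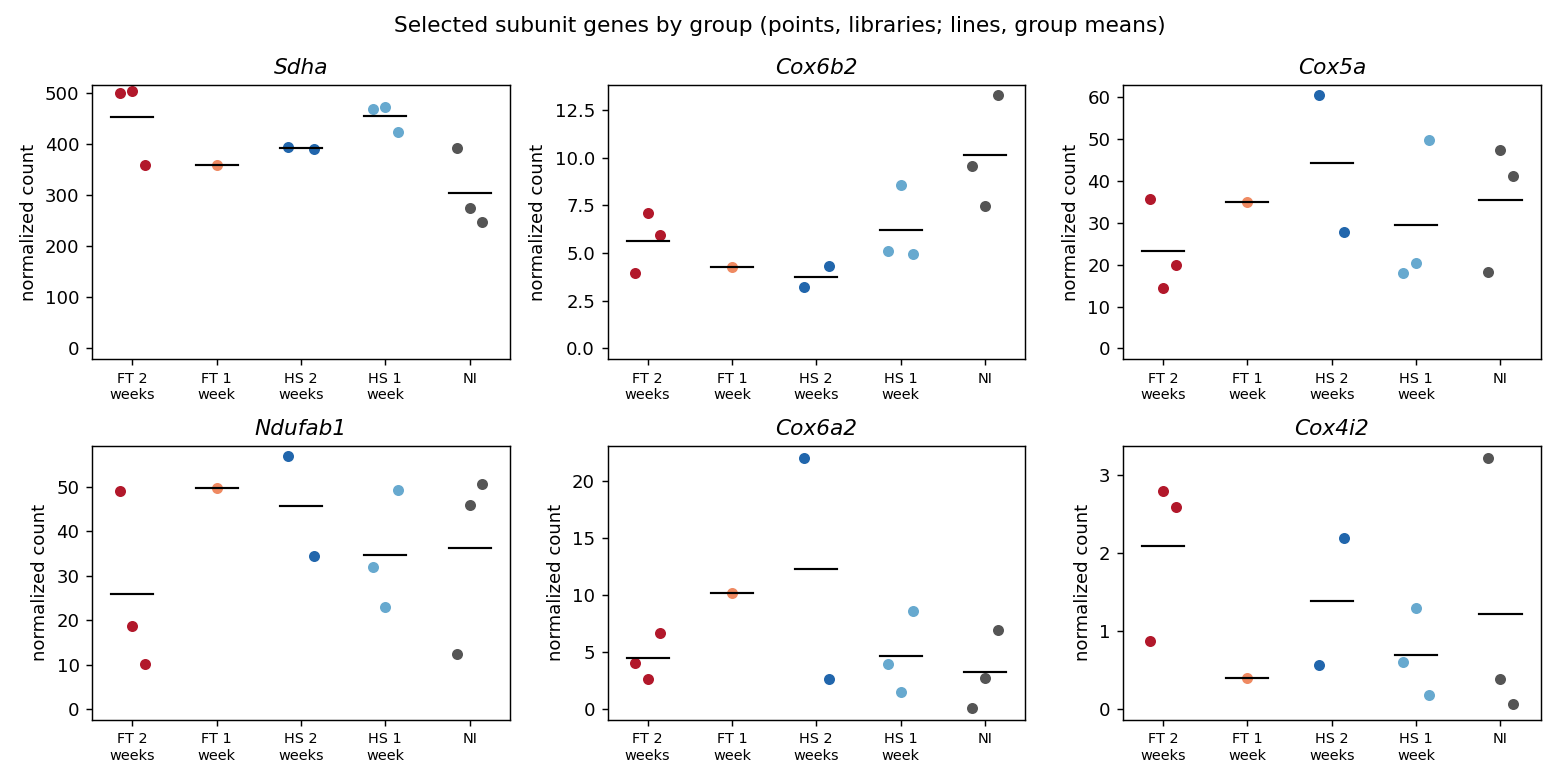
Points are libraries by group, horizontal lines are group means, and the y axis of each panel is the normalized count of 1 gene on its own linear scale. Sdha lies higher in injured libraries than in 2 of the 3 NI libraries, Cox6b2 lies lower in 8 of 9 injured libraries than in every NI library, and Cox5a, Ndufab1, Cox6a2 and Cox4i2 spread widely within groups.

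The lists around the pathway held 1 called gene in all. None of the 31 assembly factors, the 76 mitochondrial ribosomal proteins, the 9 carriers and partners, the 13 biogenesis regulators, the 10 hypoxia response genes or the 80 cytosolic ribosomal proteins was called in any comparison by limma. Of the 17 glycolysis genes, Eno2, the neuronal form of enolase, was called in the mean of the injured groups, with a log2 fold change of 1.63 ± 0.28 (SE) and an adjusted p of 0.045. It had 99.3, 113.3 and 70.8 normalized counts in FT 2 weeks, 87.8 in FT 1 week, 68.9 and 87.8 in HS 2 weeks, 91.4, 90.6 and 56.3 in HS 1 week and 45.3, 19.4 and 20.7 in NI, so that all injured libraries were above all NI libraries. In that comparison the median log2 fold change was 0.05 for the glycolysis list, 0.11 for the tricarboxylic acid cycle, -0.07 for the assembly factors and -0.12 for the mitochondrial ribosomal proteins, against -0.03 for all genes tested.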

How the data were processed

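RNA of sorted eGFP+ spinal cord cells was sequenced after polyA selection and amplification of low input. Per the labels and methods, the authors used TopHat2 2.0.9 for alignment (mm10, GRCm38), HTSeq 0.5.4p3 for counting and edgeR 3.3.6 for scaling. Each deposited value is a signal, namely a gene count divided by 1 factor per library, and 100% of the values gave whole reads (tolerance 1e-06), 8270643 to 15562378 per library. Intervals cover counting and library spread only, not mapping. How reads shared with pseudogenes were treated is not given in the sources used here.

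Log2 of the normalized count plus a pseudocount of 1 was fitted with limma 3.58.1 (trended prior) in R 4.3.3, with 1 term per group and all 12 libraries. A gene entered (16388 did) if the mean of any group reached 0.5. For FT 1 week, with a single library, the spread of the other groups was used. The count tests on the recovered reads, edgeR 4.0.16 (quasi-likelihood and likelihood ratio) and DESeq2 1.42.0, were alternatives. The quasi-likelihood test called 4 genes at 2 weeks after FT, 70 at 1 week after FT, 2 at 2 weeks and 1 at 1 week after HS, and 32 in the mean of the injured groups, and the likelihood ratio test 363, 297, 124, 61 and 670 genes in the same order. The model was also run on simulated counts in which genes varied independently. That run does not bear on genes that vary together between libraries, as the members did. Alternatives changed the pseudocount, filter, scaling, test, weights, replicate block and libraries included.

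Transcript lengths are medians of the protein-coding transcripts of GENCODE M21 (GRCm38), matched by symbol for 81 of 82 members, and near-identical pseudogenes were searched with BLAST+ among its transcripts. Promoters came from RefSeq (GRCm38.p6). The members and all lists were chosen with earlier results of these data known. The genes named are the catalytic core subunits, the isoform pairs, the 3 largest rises and falls per comparison among members with a mean of at least 5, and any called member. Other members and list genes were named after their values were seen. Labels give no batch. Replicates were pools of animals, and the p-values measure the spread between these samples.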

Additional observations from a re-analysis of the deposited data

Results flagged for a closer look

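Among the named members, Uqcrc2 and Atp5a1 lay on opposite sides of the NI mean in every library of a pair of groups. Uqcrc2, a core subunit gene of complex III, was 0.02 to 0.25 above the NI mean in the 3 FT 2 weeks libraries and at -0.26 to -0.08 relative to it in both HS 2 weeks libraries (log2 scale), a difference of 0.28 between the groups. Atp5a1, the gene of the α subunit of ATP synthase, was above the NI mean in the 3 FT 2 weeks libraries and below it in both HS 2 weeks libraries, a difference of 0.20, and HS 2 weeks was lower than HS 1 week by a difference of -0.26. In limma these differences had 95% intervals of -0.25 to 0.80 for Uqcrc2, -0.25 to 0.64 for Atp5a1 between FT and HS, and -0.70 to 0.19 for Atp5a1 between 2 weeks and 1 week, all of which include 0. A split of this kind was looked for in 43 named members, and Dixon's criterion was not used because no group had more than 3 libraries. The share of all genes with such a split is not given here, so these splits cannot be set against a background.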

How the results depend on the processing

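The count of called members was 0 in every comparison that an alternative could give, under 26 of 27 alternatives. The exception was DESeq2, which gave 1 member, Cox6b2, in the mean of the injured groups. The share of all genes called differed widely between alternatives. At 2 weeks after FT it went from 0% without NI replicate 2 to 8.83% with array quality weights. Over all alternatives the median log2 fold change of the members ranged from -0.18 to 0.10 at 2 weeks after FT, from -0.38 to 0.05 at 1 week after FT, from -0.36 to 0.02 at 2 weeks after HS, from -0.40 to 0.13 at 1 week after HS, and from -0.30 to 0.02 in the mean of the injured groups. FT against HS ranged from -0.01 to 0.23 at 2 weeks and from -0.25 to 0.26 at 1 week, and 2 weeks against 1 week from -0.03 to 0.23 after FT and from -0.32 to 0.18 after HS. Each moved by less than 0.31, the SD of the library medians within groups, pooled over groups. That SD takes in the HS 1 week libraries at -0.46 and 0.53 and is not the error of a difference between groups. Each of these medians had both signs within its range, so that a move under 0.31 does not mean stability. Scaling to the median member sets these medians near 0 by construction. It gave the upper ends of 0.02 at 2 weeks after HS and in the mean of the injured groups. The lower end of -0.01 for FT against HS at 2 weeks also came from it. Scaling to equal column totals shifted the median of all genes by -0.12 at 2 weeks after FT, -0.25 at 1 week after FT, -0.14 at 2 weeks after HS and -0.18 at 1 week after HS, and the median member then stood at -0.05, -0.11, -0.20 and -0.09 relative to that of all genes. At an unadjusted p under 0.05 the members at 1 week after HS numbered 6 with equal totals (8.87% of all genes) and 8 with array quality weights (36.8% of all genes).

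Replicate numbers were shared between groups, but the labels do not say that they pair libraries. Deviations of libraries with the same number correlated between -0.48 and 0.72 over 15 pairs. With a replicate block the medians were -0.04, -0.08, -0.24 and -0.10 in the comparisons of FT 2 weeks, FT 1 week, HS 2 weeks and HS 1 week with NI, and 0 members were called. Of all genes, the block fit called 0.159% at 2 weeks after FT, 0.0366% at 2 weeks after HS and 0.0427% at 1 week after HS. At an adjusted p under 0.05 alone, array quality weights gave Sdha at 2 weeks after FT, Sdha and Ndufs1 at 1 week after HS, and Sdha and Cox6b2 in the mean of the injured groups, none at 2-fold, where 13.5%, 20.7% and 18.2% of all genes passed. Leaving out 3 libraries that stood apart (HS 1 week replicates 2 and 3 and NI replicate 1), an alternative chosen after the values were seen like the scaling to the median member, gave Sdha at 2 weeks after FT (limma, adjusted p of 0.0496), where 9.75% of all genes passed. Without the FT 1 week library no value exists for the 3 comparisons with that group or for the mean of the injured groups, and with only the compared groups none exists for that mean.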
